A study of Mus musculus with 6 samples.

Results

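The skeletal muscle L-type calcium channel complex was examined in quadriceps muscle from 9-week-old male AR97Q mice. These animals are transgenic, on the C57BL/6J background, and model spinal and bulbar muscular atrophy (SBMA), an inherited polyglutamine disease of motor neurons and muscle. The Exercise group (3 mice) was trained in a forced running wheel (speed 5 m/min, 60 min per session, 5 sessions weekly) from 5 weeks of age for 4 weeks and was sampled the day after the last run. The Sedentary group (3 mice) did not run. All 6 mice carried the transgene, and no wild-type arrays were analysed here, so the values compare exercised with sedentary disease-model muscle only. Each mouse gave 1 one-colour Agilent array of labelled quadriceps RNA.

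The complex was taken as 9 genes out of the 25005 genes and transcripts measured. They were the channel subunits Cacna1s, Cacna2d1, Cacnb1, Cacng1 and Cacng6, the coupling proteins Stac3, Trdn and Asph, and Cacna2d4. Cacna2d4 was included as a related subunit of the alpha-2-delta type, whereas Cacna2d2 and Cacna2d3, of the same type, were placed in a comparison list. The 9 genes were chosen by function, but with their Exercise against Sedentary differences on these same arrays already known. Their levels and differences are therefore given as a description, without a test. All 9 genes had at least 1 probe that passed the filter on dim probes. They had 14 probes in total, of which all but 1 Asph probe passed.

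The channel sits in the transverse tubules, the inward folds of the muscle fibre membrane, and acts chiefly as the voltage sensor of contraction. When the membrane depolarises, its pore subunit is mechanically coupled to the ryanodine receptor Ryr1 in the facing sarcoplasmic reticulum, and stored calcium is released. The site where a transverse tubule meets the reticulum on both sides is the triad. Fast fibres are known to hold more triads than slow fibres.

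All values below are log2 signals after the 75th percentile of the same array was subtracted, so that 0 is the array's own 75th percentile and a difference of 1 is a doubling. Probes differ in brightness for the same amount of RNA, so levels were compared between mice and never between genes. The 75th percentile signal was 251 to 257 on the Exercise arrays and 310 to 384 on the Sedentary arrays, and subtracting it therefore raised the Exercise arrays relative to the Sedentary ones. The position of each array was read from the barcode in its file header, whose ending was taken as strip and place on the slide. On that reading the arrays lay on 1 slide in 2 strips. The 3 Exercise arrays and Sedentary 1 were in strip 1, and Sedentary 2 and Sedentary 3 were in strip 2. Strip and group are thus partly shared, and the Exercise mean minus Sedentary 1 is given as the value within strip 1.

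The RefSeq promoter table (GRCm38.p6) held 4 of the 9 genes. The letters just upstream of 3 of them are shown: Cacna1s as the pore gene, and Cacng6 and Cacna2d1 as the genes with the largest and the smallest difference among the 4. Each line gives the 250 bases before the annotated start site, 5′ to 3′ on the gene's strand, with E-boxes (CANNTG, the same on both strands, bound by myogenic basic helix-loop-helix factors such as MyoD) in capitals.
Cacna1s, chr1:136052561-136052810, + strand: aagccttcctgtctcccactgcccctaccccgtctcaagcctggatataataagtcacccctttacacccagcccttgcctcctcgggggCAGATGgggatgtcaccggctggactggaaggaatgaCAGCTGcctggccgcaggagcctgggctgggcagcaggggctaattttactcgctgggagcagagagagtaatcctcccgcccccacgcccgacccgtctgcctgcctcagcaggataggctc
Cacng6, chr7:3424412-3424661, + strand: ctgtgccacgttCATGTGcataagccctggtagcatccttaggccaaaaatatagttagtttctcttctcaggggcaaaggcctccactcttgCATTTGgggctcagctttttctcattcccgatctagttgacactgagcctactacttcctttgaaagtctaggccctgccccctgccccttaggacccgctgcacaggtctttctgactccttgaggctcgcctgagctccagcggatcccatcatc
Cacna2d1, chr5:15934441-15934690, + strand: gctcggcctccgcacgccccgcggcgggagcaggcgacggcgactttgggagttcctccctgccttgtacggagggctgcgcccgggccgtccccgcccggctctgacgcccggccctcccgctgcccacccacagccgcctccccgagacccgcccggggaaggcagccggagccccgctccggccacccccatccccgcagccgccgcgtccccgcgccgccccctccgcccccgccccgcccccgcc
The Cacna1s window held 2 E-boxes, starting 160 and 123 bases before the start site (-160 and -123), and the nearer one reads CAGCTG. The Cacng6 window also held 2, at -238 and -157. The Cacna2d1 window held none and was 82.4% G and C, against 62.4% for Cacna1s, 52.8% for Cacng6 and a median of 52.4% over all 32851 promoters of the table. Cacnb1, the remaining gene, has 2 start sites in the table, and its windows held no E-box with 73.2% G and C at the first and 1 E-box, at -27, with 56% at the second. An E-box is common, since 66.2% of all promoters hold at least 1 in these 250 bases, and 13% hold CAGCTG. No window held a MEF2 motif, which 2.92% of all promoters hold. These are matches of letters, and binding was not measured.

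The transcript of the pore subunit was higher after exercise. Cacna1s encodes the alpha-1S subunit, which forms the pore and carries the voltage sensor. Its levels were 7.51, 7.43 and 7.62 in the Exercise mice and 7.04, 6.82 and 6.60 in the Sedentary mice. The groups did not overlap, and Sedentary 1 lay nearest to the Exercise mice. The means were 7.52 ± 0.094 and 6.82 ± 0.22 (SD, n = 3 each), a difference of 0.70 (SE 0.13) or 1.62-fold, and 0.48 within strip 1. Its signals before scaling were 44280 to 49240 in the Exercise mice and 37260 to 41890 in the Sedentary mice, so the groups stood apart on that scale too, by 0.22.

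Cacnb1 encodes the beta-1 subunit, the cytoplasmic partner that brings the pore subunit to the membrane. Its levels were 3.64, 3.56 and 3.55 with exercise and 3.13, 3.10 and 2.74 without. All Exercise mice were above all Sedentary mice, with a difference of 0.59 (SE 0.13), or 1.51-fold, and 0.45 within strip 1. Before scaling the Cacnb1 signals overlapped, at 2925 to 3194 against 2564 to 3174, and the difference was 0.12.

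Both alpha-2-delta genes of the set were measured, with unlike values. These subunits are extracellular proteins that promote the surface expression of the channel, and alpha-2-delta-1 is the main one in skeletal muscle. Cacna2d1 stood at 4.81, 4.40 and 4.70 in the Exercise mice and at 4.60, 4.45 and 4.57 in the Sedentary mice. The groups overlapped, and the difference of 0.10 (SE 0.13) was smaller than the spread within the Exercise group. The other 2 Cacna2d1 probes gave -0.02 and 0.06, with overlapping groups as well.

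Cacna2d4, which encodes alpha-2-delta-4, best known from photoreceptors of the retina, gave the largest difference of the 9 genes at a level near the background of the array. It measured -2.82, -2.51 and -2.55 in the Exercise mice and -4.41, -5.92 and -5.33 in the Sedentary mice, with signals of 36.3, 45.1 and 42.7 against 14.7, 6.12 and 9.53. The probe was well above background on all 3 Exercise arrays but only on Sedentary 1 among the Sedentary arrays. The difference was 2.59 (SE 0.37), or 6.03-fold, and 1.78 within strip 1, where every array had measured it. With Sedentary 2 and Sedentary 3 raised to the lowest signal well above background on their own arrays, it was 2.07, or 4.19-fold. With normexp background correction, which adds an offset of 50 to every signal, it was 0.89. Cacna2d4 was the 1 gene of the 9 to meet the definition of a differentially expressed gene (DEG, a log2 difference of 1 or more in either direction with an FDR under 0.05). It passed the filter on dim probes only because of the Exercise arrays, where it is high. The call is therefore a description and not a test. Over all genes and transcripts 430 were DEGs with higher and 264 with lower signal in the Exercise group, 1.72% and 1.06% of those tested. That split was 237 to 553 with the deposited table of values, 192 to 60 with normexp, 591 to 217 with median scaling and 127 to 2194 without scaling. The authors reported more lower than higher DEGs at this threshold, as with the deposited table and unlike the main scaling here.

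The gamma subunits are membrane proteins of the claudin-like fold, and gamma-1 is the one that copurifies with the skeletal channel and restrains its current. Cacng1 was 3.08, 3.46 and 3.20 in the Exercise mice and 2.95, 2.83 and 2.70 in the Sedentary mice. The groups did not overlap, but the gap between the lowest Exercise mouse and Sedentary 1 was narrow. The difference was 0.42 (SE 0.13), and 0.30 within strip 1. Before scaling the Cacng1 signals overlapped, at 2173 to 2812 against 2391 to 2631, and the difference was -0.05.
Cacng6, whose product gamma-6 is the closest relative of gamma-1 and is also found in striated muscle, measured 1.88, 2.02 and 1.98 with exercise and 1.23, 0.96 and 0.98 without. Every Exercise mouse was well above every Sedentary mouse. The difference of 0.90 (SE 0.11), or 1.87-fold, was 0.73 within strip 1 and 0.43 without any scaling.

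**Figure D1:**
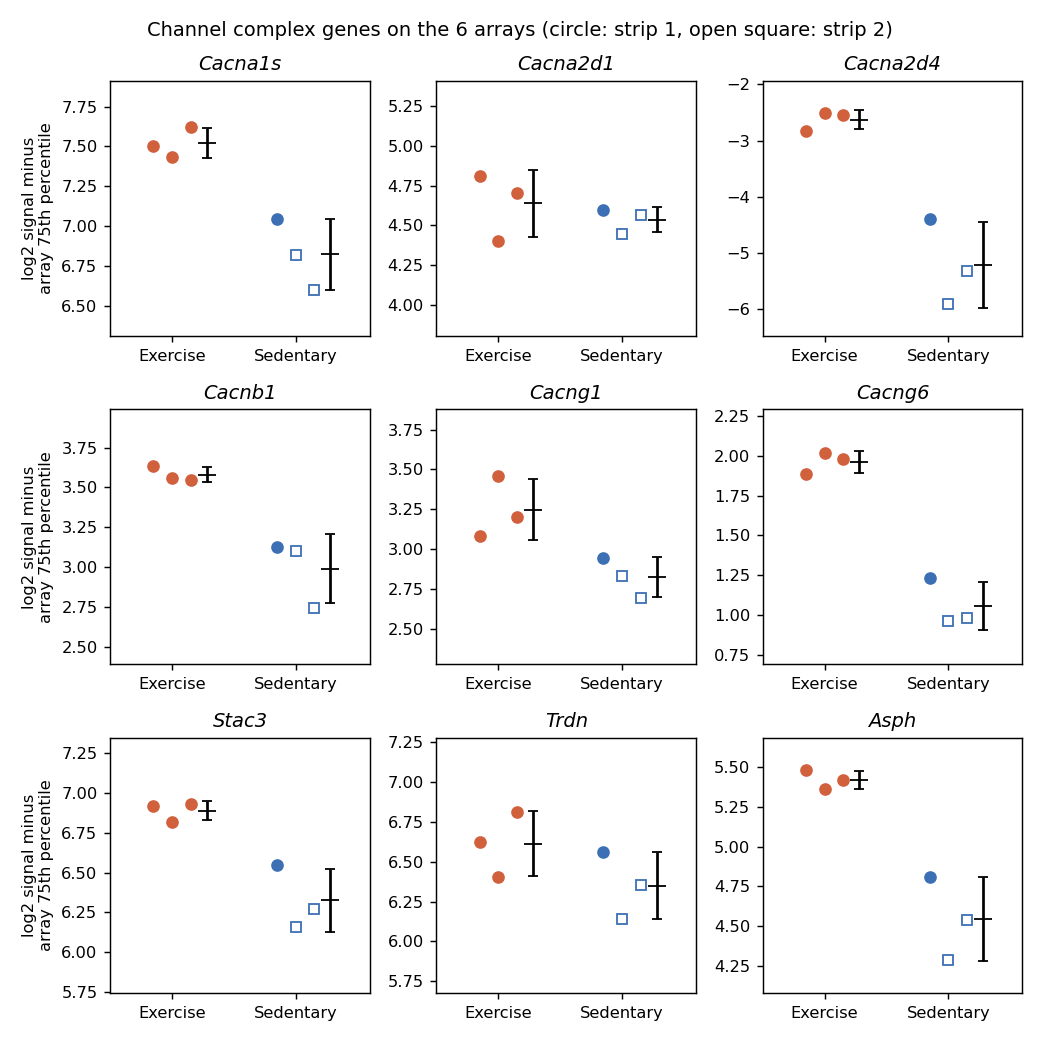
Log2 signal minus the array's 75th percentile (vertical axis, its own range in each panel) of the 9 genes in the Exercise and Sedentary mice, with 1 point per mouse and the group mean ± SD in black; filled circles are arrays of strip 1 and open squares arrays of strip 2. The groups stood apart in 7 panels and overlapped for Cacna2d1 and Trdn, and Sedentary 1 was the highest Sedentary array in all 9.

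Of the coupling proteins, Stac3 is the adaptor that the channel needs to reach the triad and to drive release. Its levels were 6.92, 6.82 and 6.93 in the Exercise mice and 6.54, 6.16 and 6.27 in the Sedentary mice. The groups did not overlap, and the difference was 0.56 (SE 0.12), or 1.48-fold, with 0.34 within strip 1. Before scaling the Stac3 signals overlapped, at 28930 to 31010 against 26440 to 29660, and the difference was 0.09.
Trdn encodes triadin, which ties the ryanodine receptor to the calcium-storing protein calsequestrin. It measured 6.63, 6.40 and 6.82 with exercise and 6.56, 6.14 and 6.35 without. The groups overlapped. The difference was 0.26 (SE 0.16) and only 0.06 within strip 1, and a second Trdn probe gave 0.25, also with overlap.

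The probes of Asph moved in opposite directions. The Asph locus gives several products by alternative promoters and splicing: the enzyme aspartate beta-hydroxylase, the calcium-binding protein junctate, and junctin, a partner of triadin in the junctional membrane. The brightest probe, designed on transcript NM_133723, read 5.48, 5.36 and 5.42 in the Exercise mice and 4.81, 4.29 and 4.54 in the Sedentary mice, a difference of 0.87 (SE 0.14). A second probe, designed on NM_001177850 and well above background on all 6 arrays, read 1.59, 1.58 and 1.75 with exercise and 2.18, 2.65 and 2.92 without, a difference of -0.95. Neither probe overlapped between the groups, and within strip 1 they gave 0.61 and -0.54. The third probe, designed on NM_001177856, was not well above background on any array. The direction for Asph as a gene therefore depended on the probe: the mean of both measured probes gave -0.04. Which product each probe detects was not settled from the sources used here.

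**Figure D2:**
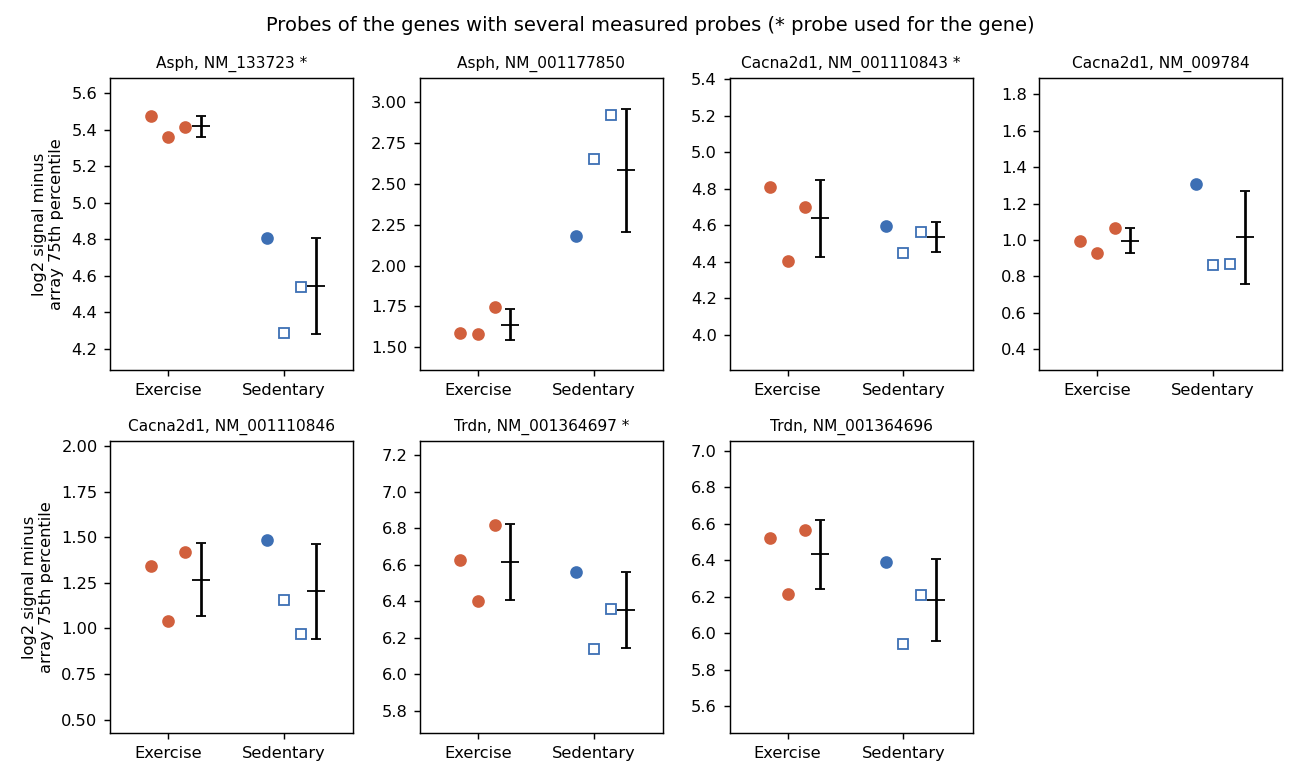
Log2 signal minus the array's 75th percentile (vertical axis, its own range in each panel) for each measured probe of Asph, Cacna2d1 and Trdn, titled by gene and transcript, with 1 point per mouse, the group mean ± SD in black, circles for strip 1 and open squares for strip 2. The 2 Asph probes differed by 0.87 and -0.95 between Exercise and Sedentary, whereas the Cacna2d1 and Trdn probes each overlapped.

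With the brightest probe of each gene, all 9 genes had a higher mean in the Exercise group, and the differences ran from 0.10 for Cacna2d1 to 2.59 for Cacna2d4. Their median was 0.59, and the median over all 25005 tested was 0.03. An FDR under 0.05 with a higher Exercise mean was reached by 6 of the 9, all but Cacna2d1, Cacng1 and Trdn, and by 11.5% of all tested; 6.12% of all tested passed with a lower mean, and none of the 9. The Exercise mice were all above the Sedentary mice for 7 of the 9 genes, and for 25% of all tested; they were all below for 18.2% of all tested and for none of the 9. Because the genes were picked with this contrast known, nothing is read from these shares. The counts also depended on the choice of probe. With the mean of each gene's probes, 8 of the 9 were higher and 5 passed the FDR higher. With the most variable probe of each gene, 8 were higher, 5 passed higher and 1, Asph, passed lower. Leaving out any 1 mouse other than Sedentary 1 left none of the 9 past the FDR. At an unadjusted p under 0.05 were 6 or 7. The lowest adjusted p over all tested was then 0.036 to 0.074 by limma, and at most 1 was a DEG. This loss is therefore not particular to the 9 genes. None of the 9 passed with the strip as a block either, with 6 at an unadjusted p under 0.05.

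The same Sedentary mouse was highest for each of the 9 genes. Sedentary 1, the Sedentary array in the strip of the Exercise arrays, was the highest of the 3 for 9 of 9 genes, for 12 of 17 triad genes, for 6 of 7 skeletal muscle markers and for 39.1% of all tested. Sedentary 2 and Sedentary 3 had no common order. The median difference of the 9 genes was 0.45 within strip 1, where the median of all tested was 0.03. How much of the difference belongs to the strip cannot be told apart from mouse to mouse variation with 1 Sedentary array in strip 1. The spread was smaller in the Exercise group for 7 of the 9 genes and for 53.1% of all tested.

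**Figure D3:**
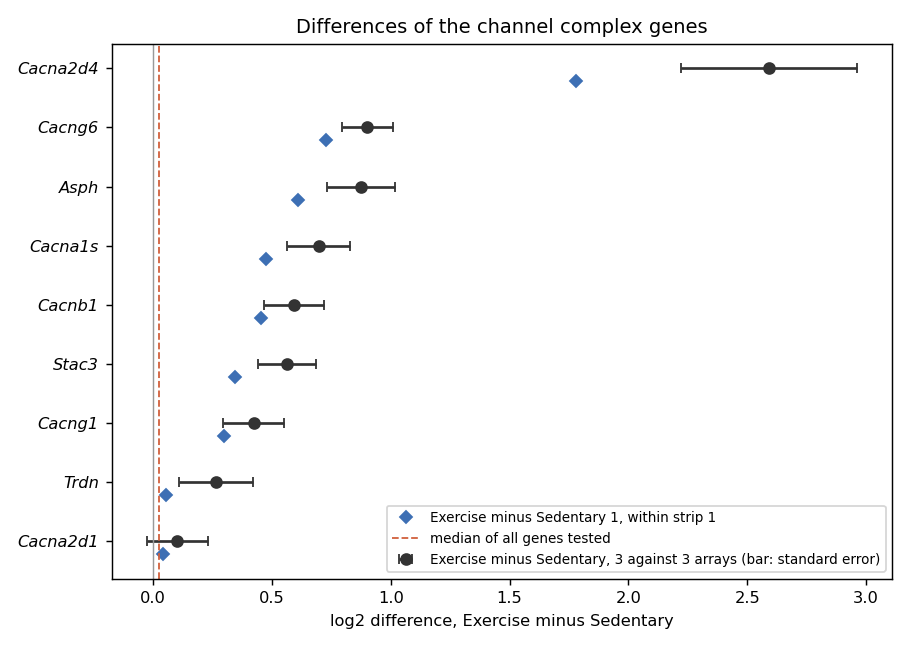
Log2 difference of Exercise minus Sedentary (horizontal axis) of the 9 genes, with black points for 3 against 3 mice, bars for the standard error, blue diamonds for the Exercise mean minus Sedentary 1, and a dashed line at the median of all genes tested (0.03). Every diamond lies to the left of its point, and all 9 points lie to the right of the dashed line.

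The scaling moved all of these differences. The 9 genes had a median of 0.68 with each array's median subtracted, 0.37 with quantile normalization, 0.43 with the deposited table of values and 0.12 without scaling. The median over all tested moved with it, to 0.11, -0.02, -0.13 and -0.45. Relative to that median, the 9 genes were all higher with the median scaling, with the deposited table and without scaling. With quantile normalization 8 of 9 were higher, and Cacna2d1 was at -0.09 relative to the median. As plain signs, Cacna2d1 and Trdn fell below 0 with quantile normalization (-0.11 and -0.01), Cacna2d1 with the deposited table (-0.06), and Cacna2d1, Cacng1 and Trdn without scaling (-0.37, -0.05 and -0.21). The number of the 9 past the FDR was 3 with quantile normalization, 4 with the deposited table and 3 without scaling.

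**Figure D4:**
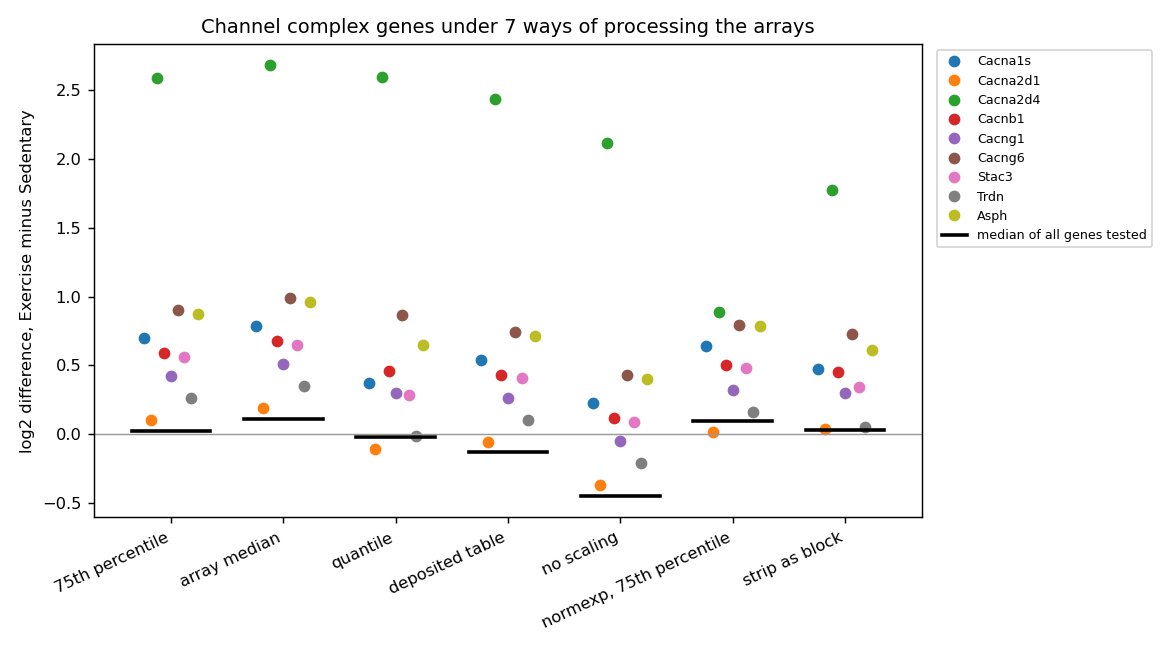
Log2 difference of Exercise minus Sedentary (vertical axis) of the 9 genes, 1 colour per gene, under 7 ways of processing the arrays, with a black bar at the median of all genes tested. Among the 7 shown, the bar ranged from 0.11 with median scaling to -0.45 without scaling, Cacna2d4 was the highest of the 9 in each, and Cacna2d1 the lowest.

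Most listed genes of the triad around the channel were higher in the Exercise mice as well. Of 18 listed genes 17 were measured, 13 with a higher and 4 with a lower mean, and their median difference was 0.52. Past the FDR were 10 of the 17, all higher, where 11.5% of all tested passed higher. Of these 10, 2 were DEGs, Casq1 and Jph2 (limma, FDR adjusted over all tested). The authors had reported both as raised on these same arrays, and as raised by quantitative PCR as well. The list was chosen with earlier results of these data known, so its counts are a description. Leaving out any 1 mouse other than Sedentary 1 left none of the 17 past the FDR. At an unadjusted p under 0.05 were 11 to 13. The lowest adjusted p over all tested was then 0.036 to 0.074 by limma, so this loss is not particular to the triad genes. With quantile normalization 3 passed higher, whereas without scaling 2 passed higher and 5 lower. None passed with the strip as a block, with 9 at an unadjusted p under 0.05, and the median difference of the 17 was 0.38 within strip 1.
The release channel that the pore subunit couples to, Ryr1, stood at 5.37, 5.27 and 5.55 in the Exercise mice and 4.88, 4.50 and 4.56 in the Sedentary mice, a rise of 0.75 (SE 0.14, adjusted p = 0.025) and 0.52 within strip 1. This is close to the 0.70 of Cacna1s, and both sets of mice stood apart for both genes. Casq1, the calsequestrin that stores calcium in fast fibres, rose by 1.41 (SE 0.28, adjusted p = 0.028), and the value within strip 1 was 0.81. Its levels were 6.29, 5.90 and 6.32 against 5.36, 4.58 and 4.34.
The junctophilins hold the tubule and the reticulum together. Jph2 rose by 1.20 (SE 0.22, adjusted p = 0.026), while Jph1, the main skeletal form, had a difference of 0.69 that did not pass (SE 0.21, adjusted p = 0.066), although its mice did not overlap. Within strip 1 these were 0.82 and 0.34.
Hrc, a calcium-binding protein of the reticulum lumen, rose by 0.86 (SE 0.20, adjusted p = 0.038). Tmem38a, the trimeric cation channel that carries the counter-current during release, rose by 0.72 (SE 0.14, adjusted p = 0.026). Jsrp1, also known as JP-45, which binds both the pore subunit and calsequestrin, rose by 0.46 (SE 0.092, adjusted p = 0.028). The values of Hrc, Tmem38a and Jsrp1 within strip 1 were 0.43, 0.45 and 0.38. Jsrp1 was at 0.05 with quantile normalization (adjusted p = 0.65), at 0.30 with the deposited table (adjusted p = 0.065) and at -0.01 without scaling, so that its call was lost.
Of the 5 listed genes of the tubule and triad membrane 3 passed. Cav3, the muscle caveolin, rose by 0.75 (SE 0.15, adjusted p = 0.027), and Bin1, which bends the membrane into tubules, by 0.52 (SE 0.11, adjusted p = 0.031), with 0.45 and 0.35 within strip 1. Speg, a kinase of the triad, rose by 0.57 (SE 0.15, adjusted p = 0.047) on its brightest probe, and its other 3 measured probes gave 0.04, -0.19 and 1.05. Dysf (0.07) and Mtm1 (-0.03) did not pass, and their groups overlapped. Fkbp1a, a partner of the ryanodine receptor, was the remaining gene past the FDR, at 0.44.

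Calcium channel subunits outside the muscle complex were listed for comparison. Of 20 listed genes 12 were measured, 8 with a higher and 4 with a lower mean, with a median difference of 0.11. None passed the FDR by limma, and 5 had an unadjusted p under 0.05. Chosen here after their values were seen, these 5 were Cacna1d (1.35, well above background on only 3 of the 6 arrays), Cacng7 (0.66), Cacna1b (0.55), Cacna2d3 (0.50) and Cacna2d2 (-0.36), with adjusted p between 0.069 and 0.097. Cacna1e, Cacng3, Cacng4 and Cacng5 were not well above background on any array.
Cacna1c, the pore subunit of heart and smooth muscle, had a difference of -0.24 (SE 0.13, adjusted p = 0.23), and a second, dimmer Cacna1c probe gave 0.52. Cacna1h, a low-voltage-activated pore subunit present in immature muscle, had 0.08 (SE 0.099, adjusted p = 0.61). Cacnb3, a beta subunit mainly of neurons and smooth muscle, had -0.15 (SE 0.14, adjusted p = 0.44). With normexp background correction 4 of the 12 passed the FDR, all higher, and without scaling 5, all lower.
The RGK GTPases bind the beta subunit and inhibit the channel. Of 4 genes 3 were measured and none passed by limma, with 1 at an unadjusted p under 0.05. Gem had a difference of 0.39 (SE 0.24, adjusted p = 0.28) and Rrad, the one with an unadjusted p under 0.05, of -0.31 (SE 0.11, adjusted p = 0.10). Rem2 was not well above background on any array.

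**Figure D5:**
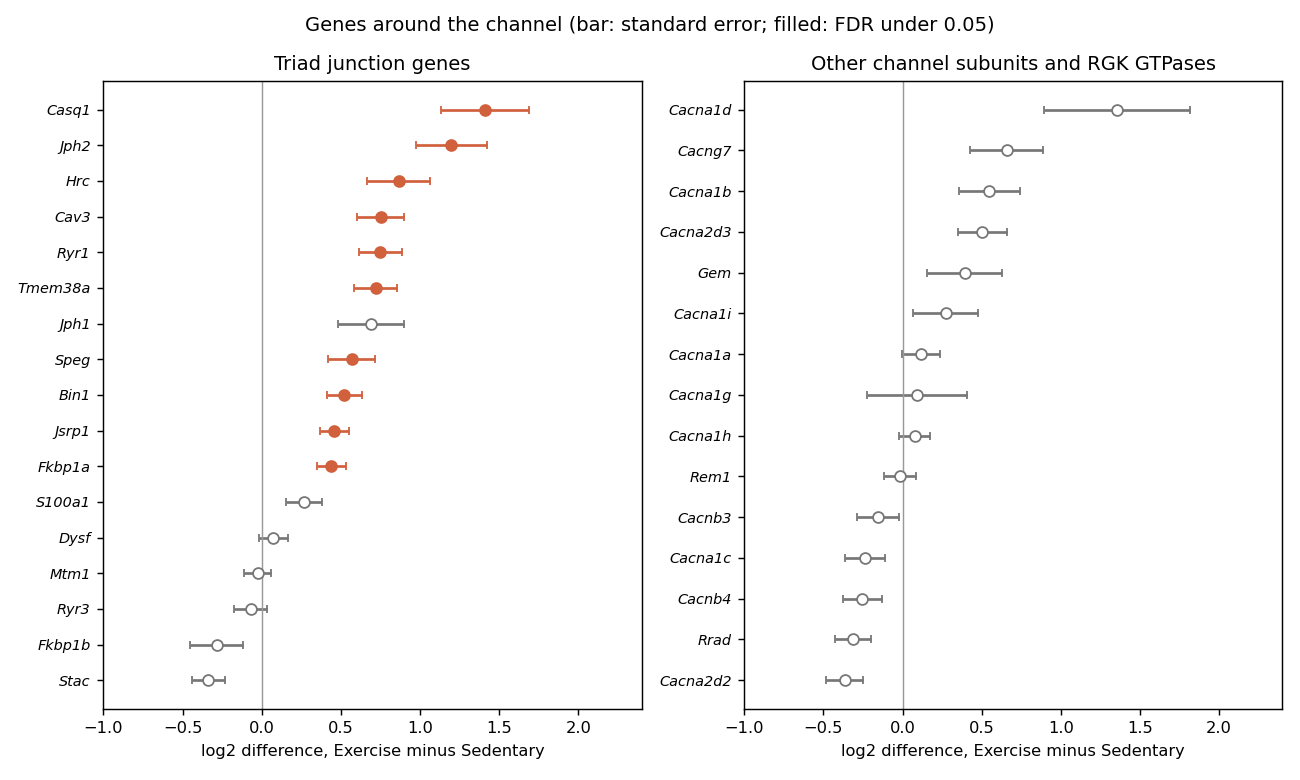
Log2 difference of Exercise minus Sedentary (horizontal axis) with its standard error for 17 triad junction genes on the left and for 12 other channel subunits with 3 RGK GTPases on the right; filled points have an FDR under 0.05 (limma). The left panel holds 10 filled points, all higher in the Exercise mice, and the right panel none.

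Of the fibre and tissue marker lists, the skeletal muscle list differed in the same direction as the complex. The average levels of the other lists were lower or little changed in the Exercise mice. The marker lists too were chosen with earlier results of these data known. Over all tested 11.5% passed the FDR higher and 6.12% lower. In whole quadriceps RNA, fewer fibres and less RNA per fibre cannot be told apart. All 7 skeletal muscle markers had a higher mean in the Exercise mice and 5 passed the FDR: Ckm (1.50), Mb (1.20), Acta1 (0.93), Myh4 (0.83) and Tnnt3 (0.81). After each gene's own mean over the 6 mice was subtracted, their average level was 0.35 to 0.50 in the Exercise mice and -0.61 to -0.13 in the Sedentary mice. The same average over the 9 genes was 0.36 to 0.44 and -0.55 to -0.14. The difference was thus 0.83 for the muscle markers, 0.78 for the 9 genes, 0.55 for the 9 without Cacna2d4 and 0.47 for the triad genes. All of these marker genes were well above background on all 6 arrays.
Slow fibre markers had lower group means with exercise, with 6 of 6 lower and 2 past the FDR. Their average level was -1.08 to 0.49 in the Exercise mice and 0.14 to 0.68 in the Sedentary mice, so the groups overlapped. Exercise 3 and Sedentary 1 were the highest of their groups, and the difference of this average was -1.06 within strip 1. Of 8 denervation markers 7 were lower and 5 of these passed, among them Chrng (-3.62), Myh3 (-2.35) and Runx1 (-1.29). Hdac9 was higher (0.44), and the list did not give the direction in which denervation moves each gene. Within strip 1 Chrng, Myh3 and Runx1 differed by -1.82, -1.55 and -0.64, and Ckm, Mb, Acta1, Myh4 and Tnnt3 by 1.03, 0.90, 0.71, 0.45 and 0.58. None of the skeletal muscle or denervation markers passed in these directions with the strip as a block or without any one mouse other than Sedentary 1, when 5 or 6 of the 7 and 5 to 8 of the 8 had an unadjusted p under 0.05. With 1 such mouse left out, the lowest adjusted p over all tested was 0.036 to 0.074 by limma, so that loss is not particular to the markers. The average level of the denervation markers, Hdac9 included, was -0.86 to -0.52 against 0.03 to 1.07, and Sedentary 1 was the lowest of the Sedentary mice. Of 4 smooth muscle markers 3 were lower and 1, Myh11 (-0.95), passed, with average levels of -0.52 to -0.23 against 0.06 to 0.68. The 5 measured nerve and Schwann cell markers were all lower, with average levels of -0.40 to -0.09 against 0.08 to 0.35. None of 4 endothelial or 4 macrophage markers passed by limma, with 0 at an unadjusted p under 0.05, and of 4 adipocyte markers 1 was higher and 3 lower, with a median of -0.75. Among these Lep (0.35) passed, while Adipoq (-0.96), Plin1 (-0.92) and Cfd (-0.58) did not. The part of fibre type, denervation or tissue makeup in the differences of the channel genes was not tested.

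Over the 6 arrays, the genes whose profile was most like that of Cacna1s among 15738 named genes, the 9 left out, were Gsk3a (Pearson r = 0.9993), Egln2 (0.9991), Azi2 (0.9989), Arl6ip6 (0.9989) and Pou5f1 (0.9984). Gsk3a is a glycogen synthase kinase and Egln2 a prolyl hydroxylase of the hypoxia pathway. The 6 arrays share the scaling and the 2 groups, so with so many genes compared a correlation this high is a description only. The differences of these 5 genes were smaller than or close to that of Cacna1s, from 0.34 for Arl6ip6 to 0.76 for Pou5f1.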

How the data were processed

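Quadriceps RNA of 6 mice was hybridised by the authors, 1 mouse per array, to Agilent SurePrint G3 Mouse GE v2 8x60K arrays (1 colour, Cy3, RNA integrity number 8.4 to 9.2). Per the file headers, the deposited scanner files hold processed signal intensity, background-subtracted and spatially detrended with Feature Extraction 12.1.0.3, with no scaling between arrays. The deposited table of values holds the same intensity multiplied by 1 factor per array (1.33 to 1.88), whose basis was not given in the sources used here. Array precision is limited by their number. No spot was saturated, and 54.6% to 59.9% of probes were well above background.

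Intensities were converted to log2 and the array's 75th percentile was subtracted. Of 56605 probes, 34566 were named by matching RefSeq accessions to a RefSeq gene table (GRCm38.p6), and the others kept their identifiers. Probes had to be well above background on 3 arrays or more, and the brightest probe stood for its gene. Exercise and Sedentary were set against each other using the limma package, version 3.58.1 (R 4.3.3, two-sided, Benjamini-Hochberg over 25005 genes and transcripts), tested first on simulated data. The methods give the DEG threshold and iDEP as the tool, but not its normalization.

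The 9 genes and the gene lists were chosen with earlier results of these data known. Named beside the 9 were 10 genes set by function, up to 5 more per list past the FDR with the largest difference, and the 5 genes most like Cacna1s. Replicates were separate mice, per the labels and methods, and 3 against 3 cannot give an exact permutation p under 0.1, so none was used. Alternatives were other scalings, background correction, probe filter and probe choice, the deposited table, leaving out each mouse, the replicate number or strip as a block, and, chosen after seeing the data, the raised dim arrays of Cacna2d4. The call of 1 nerve marker and the details of the transgene are not reported here.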

Additional observations from a re-analysis of the deposited data

How the results depend on the processing

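Of the 9 genes, 1 was a DEG, and this count was 0 with normexp background correction, 0 with probes well above background on all arrays (which leaves Cacna2d4 out), 0 with the strip as a block, 0 with the replicate block, 0 to 2 when 1 mouse was left out, and 6 with the FDR alone. Of the 17 triad genes 2 were DEGs; the count was 0 without scaling, 0 with the strip as a block, 0 with the replicate block, 0 to 3 when 1 mouse was left out, and 10 with the FDR alone. Apart from the strip block, counts of 0 here had 6 or 7 of the 9 genes at an unadjusted p under 0.05 by limma. With probes well above background on all arrays it was 6 of the 8 tested, and with normexp 6 of the 9 still passed the FDR. Of the 17 triad genes it was 11 to 13, and 8 without scaling, where 2 passed the FDR higher and 5 lower. Without Sedentary 1, 6 of the 9 genes passed the FDR. Same-numbered mice did not deviate together (correlations 0.02, 0.08 and 0.04), so the replicate block removes degrees of freedom without a known pairing, and the lowest adjusted p over all genes was then 0.061, so that 0 of the 9 and 0 of the 17 passed the FDR. Directions that turned were Asph with the mean of its probes (-0.036) and with its most variable probe (-0.95), Cacna1c with the same choices (0.14 and 0.52), Jsrp1 (-0.014) and Gem (-0.081) without scaling, Cacna1h without scaling (-0.40), with the deposited table (-0.082) and with the strip as a block (-0.052), and Cacnb3 with normexp (0.071). The alternatives were run for 24 genes, the 9 and those named by rule from the lists; besides those above, Cacna2d1, Cacng1 and Trdn changed sign with the scalings, and the other 15 kept theirs. Dim probes limit Cacna2d4 and Cacna1d, whose Sedentary signals lie at the edge of detection.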
